A study of Drosophila melanogaster with 4 samples.

Results

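The genes described here had their lowest signal on the array labelled TORC neuronal rescue, out of 4 arrays of fasted male fly heads. TORC, now called Crtc, is a coactivator that works with the transcription factor CREB. A gene was included when its signal on each of the other 3 arrays was 2-fold or more above that on the neuronal rescue array. The WT control also had to lie under 2-fold above the higher of the TORC mutant and the rescue control. Barred by symbol were nej, para, dnc and all symbols starting Obp, Or, Gr, Ir, Cyp, Gst, Ugt or Cpr. Of 11981 genes measured, 34 met the first condition and 29 remained after 3 were left out by symbol and 2 by the limit on the WT control. These 29 genes were chosen by their signals on all 4 arrays. Their low signal in the neuronal rescue is a description and not a finding, and no test is attached to it.

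There was 1 array for each of 4 groups, labelled as TORC neuronal rescue, TORC mutant, rescue control and WT control. All were total RNA from heads of male Drosophila melanogaster after 24 h without food. The labels give no age, no allele of TORC, no genotype of the rescue control and no driver for the neuronal rescue. They also do not say how many animals were pooled, so every ratio compares single RNA samples of unknown makeup. Crtc itself had a signal of 37.4 in the neuronal rescue, 3.8 in mutant heads, 6.7 in rescue control heads and 203.1 in WT control heads.

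Of the 29 genes, 5 are on any of the fixed gene lists used here and 10 carry only a CG symbol, so the roles below describe single genes and not the set. Some belong to families of surface proteins that let growing axons and synaptic partners recognise each other, such as the DIP proteins, which bind Dpr proteins, and the Side and Dscam proteins. Single members act in sleep, in the antenna, in taste or in formation of the eye. A few encode enzymes and binding proteins of chitin, the polymer of insect cuticle, tracheal lining and the gut's peritrophic matrix.

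Values are signals on a linear scale as deposited, with all arrays at the same trimmed mean. Signals under 14 were raised to that floor before a fold was taken, so a fold that uses such a signal is written as at least that size. Over all 11981 genes the median signal was 78.9 in the neuronal rescue, 58.4 in mutant heads, 60 in rescue control heads and 73.1 in WT control heads. The signals of the 29 genes were 6.1, 27.1 and 288.6 (lowest, median and highest) in the neuronal rescue and 35.7, 78.5 and 966.2 in the mutant. They were 29.2, 82.1 and 767.2 in the rescue control and 29, 67.0 and 691.6 in the WT control. On the neuronal rescue array 27 of 29 lay under 100, against 17 in mutant heads, 19 in rescue control heads and 19 in WT control heads. All 29 were above the floor on the other 3 arrays, and 4 were below it in the neuronal rescue. In counts of list, family and all other genes, a gene above the floor was above it on at least 1 array. Where all arrays are named, the filter was stricter.

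**Figure D1:**
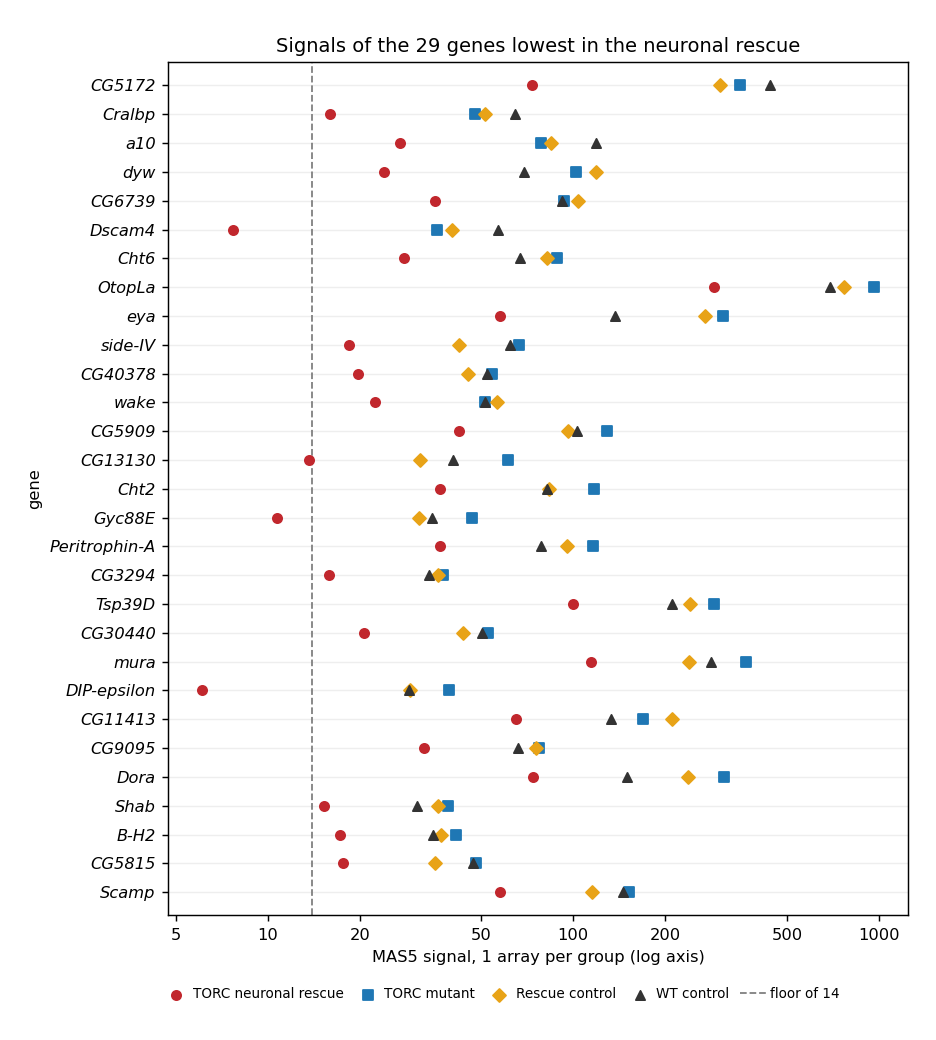
MAS5 signal (log axis) of each of the 29 genes, a point per array, ordered from the largest to the smallest gap between the neuronal rescue and the nearest other array. By the rule, in each row the neuronal rescue point is the leftmost, from 6.1 for DIP-epsilon to 288.6 for OtopLa, and the dashed line is the floor of 14.

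Across the 29 genes the median log2 ratio of the neuronal rescue was -1.53 over the mutant, -1.24 over the rescue control and -1.28 over the WT control. Over the 7480 genes above the floor on all arrays, the medians were -0.13, -0.14 and -0.06 in the same order. These 3 comparisons share the neuronal rescue array. By the rule, all 29 genes were at least 2-fold lower in each. Among all genes 2.98% were 2-fold lower than in the mutant, 1.5% than in the rescue control and 2.76% than in the WT control. The share lower than on all 3 other arrays was 0.284%. Genes of the same signal range as the members, 6153 in all, had a mean log2 signal within that of the members and lay above the floor on the 3 other arrays. Among them the shares were 4.78% against mutant heads, 2.05% against rescue control heads and 3.56% against WT control heads.

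The same condition was applied to each array to show how common a single low array is. The mutant had 107 genes at least 2-fold below all 3 other arrays (0.893% of genes), the rescue control 21 (0.175%) and the WT control 65 (0.543%). In the other direction, the neuronal rescue had 474 genes at least 2-fold above all others (3.96%), against 9 in mutant heads (0.0751%), 21 in rescue control heads (0.175%) and 119 in WT control heads (0.993%).

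Of the genes linked to sleep, dyw (daywake) encodes a protein of the takeout and juvenile hormone binding family that acts on daytime sleep. Its signal was 24.0 in the neuronal rescue, 102.4 in mutant heads, 118.6 in rescue control heads and 69.0 in WT control heads. It was 4.27-fold lower in the neuronal rescue than in the mutant, 4.94-fold lower than in the rescue control and 2.88-fold lower than in the WT control. The sleep gene wake (wide awake), whose product acts in clock neurons, had 22.5 in the neuronal rescue, 51.5 in mutant heads, 56.3 in rescue control heads and 51.5 in WT control heads. The other 3 arrays lay close together for wake and spread more widely for dyw. Among the 14 other clock list genes above the floor, 1 was 2-fold lower than in the mutant, none than in the rescue control and 1 than in the WT control. The gene called against the mutant was tim, whose protein pairs with Period. It had 583 in the neuronal rescue, 1253.3 in mutant heads, 805.3 in rescue control heads and 829.3 in WT control heads. Pdf went the other way against the mutant and the rescue control, with 394.5, 219.9, 187.1 and 434.7 in that array order. The neuronal rescue was lower than mutant, rescue control and WT control heads in 12, 13 and 9 of the 14. The same counts over all 10144 other genes above the floor were 4931, 5264 and 4816.

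In the group of eye and antenna genes, eya (eyes absent), a transcriptional cofactor and phosphatase needed to form the eye, had the largest fold against the mutant. Its signal was 57.5 in the neuronal rescue, 309.9 in mutant heads, 269.2 in rescue control heads and 136.9 in WT control heads. The fold was 5.39 against the mutant, 4.68 against the rescue control and 2.38 against the WT control, whose signal for eya was itself about midway on the log scale. B-H2, a Bar homeobox gene of the eye and external sense organs, was near the threshold at 17.3 in the neuronal rescue, 41.2 in mutant heads, 37.0 in rescue control heads and 34.7 in WT control heads.

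Cralbp, named for the vertebrate retinaldehyde-binding protein, had 16 in the neuronal rescue, 47.7 in mutant heads, 51.4 in rescue control heads and 64.4 in WT control heads. The antennal gene a10 had 27.1, 78.5, 84.7 and 118.8 in that array order. Both were highest in the WT control, 4.03-fold and 4.38-fold above the neuronal rescue. OtopLa encodes an otopetrin proton channel used for acid taste. It was the brightest of the 29, at 288.6 in the neuronal rescue, 966.2 in mutant heads, 767.2 in rescue control heads and 691.6 in WT control heads. The other 2 otopetrin genes on the array, OtopLb and OtopLc, lay between 10.8 and 30.6 on all arrays. OtopLb was highest in the neuronal rescue, at 25.5, and OtopLc lowest there, at 15.9.

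The eye and head factor list held 31 genes above the floor, eya and B-H2 among them. Of the other 29, 2 were 2-fold lower than in the mutant, 2 than in the rescue control and 1 than in the WT control. Their median log2 ratios were -0.43, -0.18 and -0.24, and -0.01, 0 and 0.09 when arrays were centred on head cell genes of neurons, glia and photoreceptors. The eye selector ey had 71.8 in the neuronal rescue, 162.7 in mutant heads, 125 in rescue control heads and 114.6 in WT control heads, short of 2-fold for both controls. Of the 16 antennal list genes other than a10, 1 was 2-fold lower than in the mutant, 2 than in the rescue control and 4 than in the WT control. The antennal gene Os-C had 10.2 in the neuronal rescue, 30.6 in mutant heads, 50.7 in rescue control heads and 136.6 in WT control heads. It was left out by the limit on the WT control alone, as was ltl, with 66.7, 173.6, 174 and 423.8.

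The surface recognition genes Dscam4, side-IV and DIP-epsilon lay under 100 on every array. Dscam4, of the Dscam immunoglobulin family, had 7.7 in the neuronal rescue, 35.7 in mutant heads, 40.2 in rescue control heads and 56.8 in WT control heads. It was at least 2.55-fold, 2.87-fold and 4.06-fold lower in the neuronal rescue than in those arrays. For side-IV, of the Sidestep family, the neuronal rescue had 18.4, the mutant 66.4, the rescue control 42.2 and the WT control 62.3. DIP-epsilon, a Dpr-interacting protein, had 6.1, 39.1, 29.2 and 29 in that array order. Its neuronal rescue signal was under the floor, which makes the folds at least 2.79, 2.09 and 2.07. Tsp39D, a tetraspanin of the membrane, was brighter, with 99.8 in the neuronal rescue, 289.2 in mutant heads, 240.6 in rescue control heads and 210.7 in WT control heads.

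Other genes of the DIP, Dpr, Side and Dscam families were examined with the 3 members set aside. Of 38 such genes above the floor, 29 had a lower signal in the neuronal rescue than in the mutant, 31 than in the rescue control and 30 than in the WT control. Over all 10144 other genes above the floor, the same counts were 4931, 5264 and 4816. The median log2 ratios of the family were -0.67, -0.33 and -0.50, against 0, -0.03 and 0.00 over those other genes. Under quantile normalization the family had -1.03, -0.80 and -0.45, against -0.28, -0.25 and -0.08 for the 7480 genes above the floor on all arrays. Under centring on head cell genes it had -0.10, -0.03 and -0.02, against 0.44, 0.17 and 0.42 for those genes. At the 2-fold threshold, 4 were lower than in the mutant, 1 than in the rescue control and 6 than in the WT control. A lower signal in the neuronal rescue was also common in long genes of the members' signal range. Of those spanning over 20000 bp, 81.5%, 76.5% and 78% were lower in the same order, against 59.9%, 63.2% and 55.1% of shorter ones. The part of gene length in the family counts was not tested. This family list was made after the 29 genes were known. The related gene side-II missed the rule narrowly, with 9.6 in the neuronal rescue, 50.3 in mutant heads, 27.6 in rescue control heads and 50.3 in WT control heads. DIP-gamma had 40.1, 86.1, 80.5 and 59.0 in that array order, so it was 2-fold lower than in the mutant and the rescue control and not than in the WT control. Among 31 other tetraspanin genes, none was 2-fold lower than in the mutant or the rescue control and 1 was 2-fold lower than in the WT control. In the other direction, 8 were 2-fold higher than in the mutant, 3 than in the rescue control and 3 than in the WT control.

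Of the genes of excitability and signalling, Shab encodes a delayed rectifier potassium channel of neurons and muscle. Its signal was 15.3 in the neuronal rescue, 38.9 in mutant heads, 36.2 in rescue control heads and 30.7 in WT control heads, at the edge of the rule. The related channel gene Sh (Shaker) had 196.6 in the neuronal rescue, 409.1 in mutant heads, 271.4 in rescue control heads and 259.6 in WT control heads. It was thus 2-fold lower than in the mutant only. Gyc88E, a subunit of an atypical soluble guanylate cyclase that responds to oxygen, had 10.7 in the neuronal rescue, 46.5 in mutant heads, 31.2 in rescue control heads and 34.5 in WT control heads. The fold was at least 3.32, 2.23 and 2.46.

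The ubiquitin ligase gene mura (murashka), linked to long-term memory, had 114.7 in the neuronal rescue, 366.6 in mutant heads, 239.7 in rescue control heads and 281.9 in WT control heads. Dora, whose product is the fly counterpart of the ligase ZSWIM8 that drives decay of microRNAs, had 73.6, 310.2, 237.2 and 149.9 in that array order. Like eya, Dora was highest in the mutant and lower in the WT control than in the rescue control. Scamp, a secretory carrier membrane protein of vesicle traffic, had the smallest gap of all. Its signal was 57.7 in the neuronal rescue, 151.8 in mutant heads, 115.5 in rescue control heads and 144.9 in WT control heads.

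A group of 3 members is tied to chitin. The chitinase gene Cht6 had 27.9 in the neuronal rescue, 88.4 in mutant heads, 82.1 in rescue control heads and 67.0 in WT control heads. For Cht2, a further chitinase gene, the neuronal rescue had 36.5, the mutant 117, the rescue control 83.2 and the WT control 81.9. Peritrophin-A, a chitin-binding protein gene, had 36.7, 115.9, 95.3 and 78.5 in that array order. All of them were highest in the mutant and lowest, among the other 3 arrays, in the WT control. That order was not particular to the chitin genes, since OtopLa, eya and Tsp39D, among others, had it too. Over all members, the mutant was highest in 21 and the WT control was lowest of those 3 arrays in 15. The 13 other chitinase and Idgf genes above the floor had median log2 ratios of 0.17 over the mutant, -0.11 over the rescue control and 0.02 over the WT control, with signs that changed with the scaling. The numbers 2-fold lower were 2, 1 and 0, and the numbers 2-fold higher were 4, 1 and 1. Of these 13, Cht5 had 24.8 in the neuronal rescue, 69.9 in mutant heads, 53.1 in rescue control heads and 27.2 in WT control heads, so its neuronal rescue and WT control signals were close. The 13 other peritrophin and chitin-binding genes above the floor had medians of 0, 0 and -0.03, and of 0.44, 0 and 0 under centring on head cell genes. The medians of 0 as deposited were ratios of signals both raised to the floor, as for Muc14A, with 3.8, 1.5, 2.6 and 14.3 in that array order. Of the 13, 6 were 2-fold higher than in the mutant, 4 than in the rescue control and 4 than in the WT control, and 2, 0 and 1 were 2-fold lower.

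The remaining 10 members carry only a CG symbol. CG5172 had the widest gap of the 25 genes that lay above the floor in the neuronal rescue, with 73.5 in the neuronal rescue, 352.3 in mutant heads, 301.9 in rescue control heads and 440.2 in WT control heads. It was 4.79-fold, 4.11-fold and 5.99-fold lower in the neuronal rescue than in those arrays and was the single gene to pass a threshold of 3-fold with the floor at 14. With no floor its smallest gap on the log2 scale was 2.04, against 2.25 for DIP-epsilon and 2.21 for Dscam4. CG6739 had 35.3, 92.9, 103.5 and 91.8 in that array order, with the other 3 arrays close together. CG5909 had 42.2 in the neuronal rescue, 129.4 in mutant heads, 95.9 in rescue control heads and 102.7 in WT control heads.

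CG11413 had 64.8 in neuronal rescue heads, 168.5 in mutant heads, 210.7 in rescue control heads and 133 in WT control heads, so the rescue control was its highest array. CG9095 had 32.4 in the neuronal rescue, 77 in mutant heads, 75.3 in rescue control heads and 66.1 in WT control heads. CG30440 had 20.7, 52.5, 43.6 and 50.2 in that array order. The other CG genes lay between 13.7 and 19.7 in the neuronal rescue, within reach of the floor. CG40378 had 19.7 in the neuronal rescue, 54.1 in mutant heads, 45.1 in rescue control heads and 52.1 in WT control heads, and CG13130 had 13.7, 61.1, 31.5 and 40.4. CG3294 had 15.9, 37.6, 36.1 and 33.7 in that array order, and CG5815 had 17.6, 48, 35.3 and 46.9. CG40378 and CG13130 kept the symbols of the platform annotation, since neither matched a gene of the RefSeq Release 6 table. The share of CG symbols was 34.5% among the members and 43.5% among all genes.

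Genes just inside and just outside the threshold differed little. The last 5 members were Scamp, CG5815, B-H2, Shab and Dora, with a smallest fold from just over 2 to 2.04. The first 5 genes outside were raptor, PVRAP, cd, side-II and e(y)3, with a smallest fold from 1.97 to just under 2. Of the 25 members with a measured smallest fold, 12 had one under 2.2 and 5 had one over 2.5, namely CG5172, Cralbp, a10, dyw and CG6739. The other 4, Dscam4, CG13130, Gyc88E and DIP-epsilon, have lower bounds only.

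The rule also limits how the members can vary among the other 3 arrays, so the values in this paragraph are a description. The spread of those arrays, as log2 of the highest over the lowest, had a median of 0.46 and a range of 0.13 to 1.18, against a median of 0.42 in genes of the same signal range. The mutant had the highest signal in 21 of 29 genes, the rescue control in 4 and the WT control in 4. Among the 3 arrays the shares in genes of the same signal range were 36.5%, 34.1% and 29.4%. For the mutant over the WT control the median log2 ratio was 0.33, with 24 of 29 genes above 0, against a median of 0.06 and 56.6% of genes above 0 in the same signal range. At least 2-fold higher in the mutant were eya (2.26-fold) and Dora (2.07-fold), and none was 2-fold lower. Among all genes 1.74% were 2-fold higher in the mutant and 11.5% lower. The rule bounds the WT control from above against the higher of the other 2 arrays, so it limits how far members can lie below the WT control. The rescue control over the WT control had a median of 0.02, with 16 of 29 genes above 0. Genes of the same signal range had a median of 0.06, with 56.3% above 0. None of the members was called in either direction, and the highest was eya, at 1.97-fold. Among all genes 2.3% were higher and 11.1% lower. The shares of all genes in this paragraph include genes at the floor, while all members were above it on these 3 arrays.

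Other probe sets of the same genes gave a further reading of the same RNA. The array carried 13 more probe sets for 8 of the members, of which 10 were above the floor on at least 1 array. None of the 13 was 2-fold below all 3 other arrays. The neuronal rescue was the lowest array for 5 of the 10, which were those of Cht6, OtopLa, side-IV, DIP-epsilon and Dora. The share of all probe sets lowest there was not counted, so no agreement is read from this. For DIP-epsilon it was nearly level with the rescue control, at 17.6 against 17.9. For Dora the neuronal rescue signal, 13.6, was under the floor. For OtopLa the further probe set had 67.0 in the neuronal rescue, 202.2 in mutant heads, 107.1 in rescue control heads and 148.6 in WT control heads, short of 2-fold against the rescue control alone. That of side-IV had 22.5, 55.5, 31.4 and 67.7 in that array order and fell short on the same array.

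In Scamp the order was turned. A further probe set, with 72.2 in the neuronal rescue, 51.7 in mutant heads, 60.5 in rescue control heads and 52.3 in WT control heads, was highest in the neuronal rescue. A further probe set of Shab had 22.2, 31.2, 17.6 and 26.7 in that array order, with the rescue control lowest. The further probe sets of Dscam4 were below the floor in both the neuronal rescue and the rescue control. For genes read by exactly 2 measurable probe sets, the difference between their log2 ratios had a robust SD of 0.61 for the neuronal rescue over the mutant (421 genes), 0.49 over the rescue control (420 genes) and 0.62 over the WT control (457 genes). The smallest gaps of the members, from just over 1 to 2.04 on the log2 scale with the floor at 14, are to be read against that spread.

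**Figure D2:**
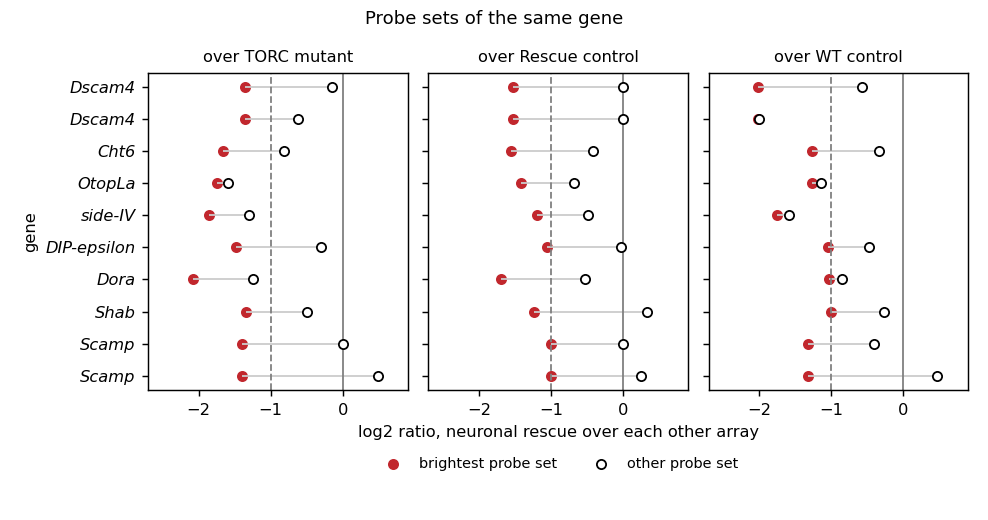
Log2 ratio of the neuronal rescue over each other array (x axis, a panel per array) for the probe set that stood for the gene (filled) and for each further probe set above the floor on at least 1 array (open). Open points at 0 include pairs of signals both at the floor. The dashed line marks 2-fold lower, and the open points of Scamp with a positive ratio are those of the probe set that was highest in the neuronal rescue.

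Head cell marker lists also had lower medians in the neuronal rescue with signals as deposited. Without Shab, the 25 neuron list genes had median log2 ratios of -0.63 over the mutant, -0.38 over the rescue control and -0.53 over the WT control. Under quantile normalization they had -0.67, -0.35 and -0.52, against -0.28, -0.25 and -0.08 for the 7480 genes above the floor on all arrays. Of the 25, 4 were 2-fold lower than in the mutant, none than in the rescue control and 5 than in the WT control. The RNA-binding protein gene elav, which marks neurons, had 142.3 in the neuronal rescue, 236.7 in mutant heads, 185.3 in rescue control heads and 290.6 in WT control heads. The vesicular glutamate transporter gene VGlut had 61.9, 206.9, 92.1 and 211.7 in that array order, the lowest ratios of the list over the mutant and the WT control. Other neuron genes were highest in the neuronal rescue, such as cac, with 313.3, 292.2, 176.8 and 267.2, and VAChT, with 668.4, 643.9, 605.6 and 555.5. The neuronal rescue was lower than mutant, rescue control and WT control heads in 21, 18 and 22 of the 25. The same counts over all 10144 other genes above the floor were 4931, 5264 and 4816. The 18 photoreceptor genes had medians of -0.35, -0.29 and -0.22, and the 19 glial genes -0.40, -0.23 and -0.41 as deposited. Under quantile normalization the photoreceptor genes had -0.33, -0.22 and -0.26, and the glial genes -0.30, -0.14 and -0.41. Set against the -0.28, -0.25 and -0.08 of the 7480 genes, both lists were close over the mutant and not lower over the rescue control. The neuron, photoreceptor and glial genes are themselves the set used for centring on head cell genes. That centring makes their joint median log2 signal equal on all arrays and does not set their median log2 ratio to 0. Under it the neuron medians were below 0 and the photoreceptor and glial medians above 0, and no direction is read from these. In bulk RNA, fewer cells of a type and less RNA per cell cannot be told apart. For 23 mitochondrial respiration genes the medians were 0.09, -0.16 and -0.04, and for 9 ribosomal protein genes 0.22, 0.09 and 0.23. Centring on head cell genes turned the mitochondrial medians above 0, and median centring turned the first 2 ribosomal medians below 0.

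**Figure D3:**
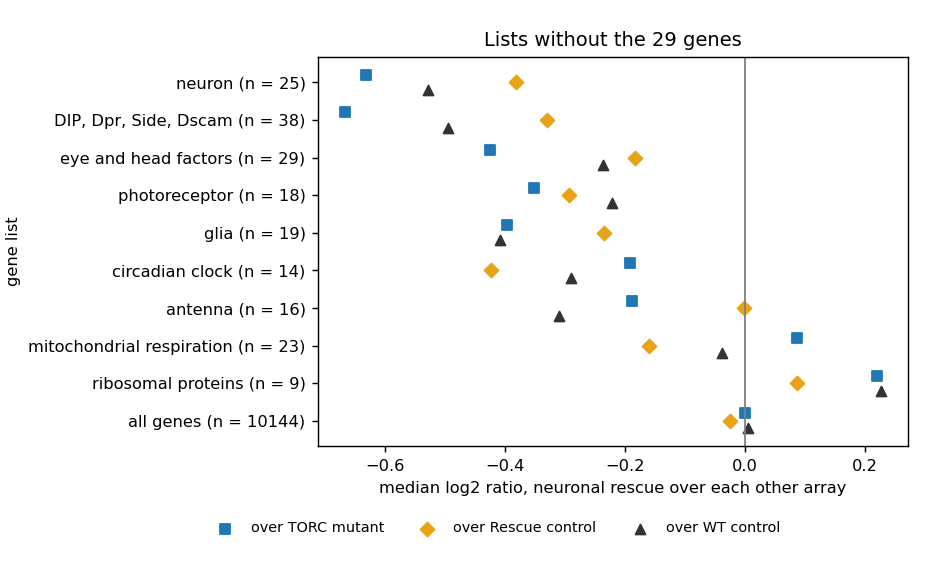
Median log2 ratio of the neuronal rescue over each of the other arrays for gene lists without the 29 genes. The number of genes above the floor on at least 1 array is in brackets. Neuron, surface recognition, glial and photoreceptor medians lie below 0 in all 3 comparisons, and ribosomal protein medians lie above 0. Under centring on head cell genes, which include these lists, the glial and photoreceptor medians were above 0, and under median centring the first 2 ribosomal medians were below 0.

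Genes of organs outside the head also separated the arrays. The summed signal of 20 accessory gland and ejaculatory duct genes was 19527 in the neuronal rescue, 98.4 in mutant heads, 119.7 in rescue control heads and 17624 in WT control heads. For 22 testis genes the sums were 13645, 139.8, 204.7 and 7721 in that array order, and for 35 gut genes 7121, 202.9, 3398 and 11309. The accessory gland genes were below the floor for none of 20 in the neuronal rescue, 19 in mutant heads, 17 in rescue control heads and none in WT control heads. The 3′ to 5′ signal ratio, which rises as RNA is broken or copied short, was 4.19 for eIF-4a in the neuronal rescue, 3.12 in mutant heads, 3.44 in rescue control heads and 4.03 in WT control heads. It was 1.90, 1.57, 1.52 and 2.02 for GAPDH, 3.70, 2.68, 3.77 and 3.86 for Act5C, 1.99, 2.25, 1.88 and 1.78 for a further actin probe set, and 2.2, 1.66, 1.81 and 1.58 for the ribosomal 18S control. The neuronal rescue was thus highest for eIF-4a and 18S and not for the other 3 controls. The part of tissue makeup and RNA quality in the low signals was not tested.

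When each array was instead centred on 62 photoreceptor, neuron and glia genes, 5 of the 29 genes still met the rule. This centring added 0.34 to the neuronal rescue, -0.24 to the mutant, 0.04 to the rescue control and -0.14 to the WT control on the log2 scale. It moved the median log2 ratio of the 7480 genes above the floor on all arrays to 0.44 over the mutant, 0.17 over the rescue control and 0.42 over the WT control, while median centring moved it to -1.04, -0.99 and -0.08. The 5 genes were CG5172, Cralbp, dyw, Dscam4 and Gyc88E, with gaps of 1.69 for CG5172, just over 1 for Cralbp, 1.05 for dyw, at least 1.12 for Dscam4 and at least 1.16 for Gyc88E. The gap of a10 was 0.96 and that of eya 0.78. This centring was chosen after seeing the data. Of the 5 genes, Cralbp, Dscam4 and Gyc88E were lost at a floor of 28. Dscam4 was also lost with the mean over probe sets, and Gyc88E with quantile normalization and with median centring.

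**Figure D4:**
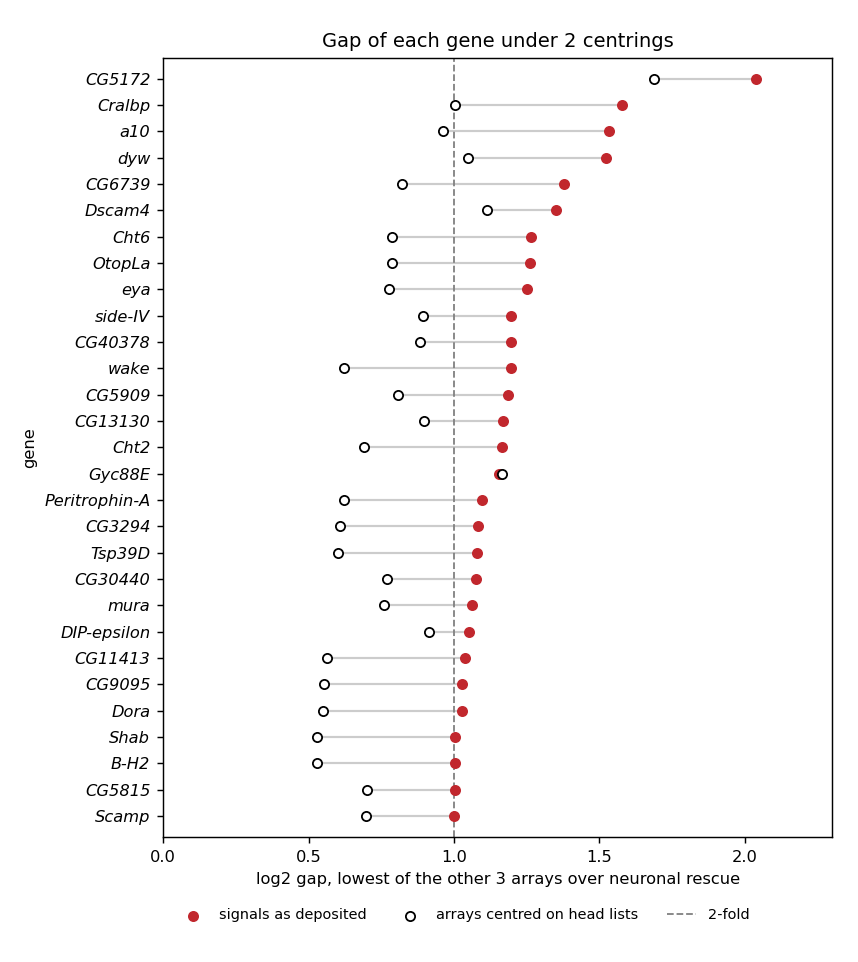
Log2 gap between the lowest of the other 3 arrays and the neuronal rescue for each of the 29 genes, with signals as deposited (filled) and with arrays centred on photoreceptor, neuron and glia genes (open). The 5 open points at or beyond the dashed line at 2-fold are those of CG5172, Cralbp, dyw, Dscam4 and Gyc88E, and the points of Dscam4, Gyc88E, CG13130 and DIP-epsilon with signals as deposited are lower bounds, as are the open ones of Dscam4, Gyc88E and DIP-epsilon.

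Genes with long transcription units were frequent among the members. By the RefSeq Release 6 table, which held 27 of the 29, the median gene span was 13595 bp, against 2263 bp for all genes and 3016 bp for genes of the same signal range. A span over 20000 bp was found for 10 of 27 members, or 37.0%, against 7.48% of all genes and 10.8% in the same signal range. The longest were Shab (64563 bp), wake (44020 bp), Dscam4 (43752 bp) and Gyc88E (40868 bp). At the other end, CG5172, dyw, a10 and CG11413 spanned 602 to 1210 bp.

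The same was seen in genes that are no members. In the signal range of the members, 650 other genes with a span over 20000 bp had median log2 ratios of -0.48 over the mutant, -0.25 over the rescue control and -0.31 over the WT control. The 5456 shorter genes had -0.10, -0.12 and -0.04. Centring on head cell genes shifted both sets alike, to 0.10, 0.05 and 0.16 for the long genes and 0.47, 0.18 and 0.43 for the shorter ones. Of the long genes, 14.5% were at least 2-fold lower in the neuronal rescue than in the mutant, 2.62% than in the rescue control and 9.08% than in the WT control. The shares of the shorter genes were 3.12%, 1.47% and 2.38%. The length limit was set after the members were known.

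The X chromosome held 9 of the 27 matched members, or 33.3%, against 15.8% of all genes and 16.9% of genes in the same signal range. These were CG5172, dyw, Cht6, OtopLa, Peritrophin-A, CG9095, Dora, B-H2 and Scamp. Other X-linked genes of that range had median log2 ratios of -0.22, -0.18 and -0.07 over the mutant, the rescue control and the WT control, against -0.13, -0.12 and -0.07 for genes of the other chromosomes, as deposited. No pair of members were neighbours, the closest pair lying 8 places apart in the order of genes.

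None of the CREB signalling genes on the list was a member. The rule bars the symbols nej and dnc, so neither could be a member, and neither is among the 17 genes here. Among 17 such genes, the median log2 ratio of the neuronal rescue was -0.32 over the mutant, -0.18 over the rescue control and -0.22 over the WT control, and above 0 in all 3 under centring on head cell genes, as was that of all genes. Crtc was the 1 gene 2-fold higher than in the mutant and the rescue control, and also the 1 gene 2-fold lower than in the WT control.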

How the data were processed

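The authors deposited linear intensity values, 1 per probe set, and the submitters' processing notes name MAS5. Its version is not given in the sources used here. Each of 4 columns had a 2% trimmed mean of 150.0. Of 18952 probe sets, 183 were controls. Names came from the platform annotation: 13646 had 1 symbol, 402 several and 4721 none, and 13543 matched RefSeq Release 6 by Entrez identifier. That table served for symbols, chromosome and gene span; the build of the array design is not given in the sources used here, so no positions are printed. The probe set with the highest mean log2 signal stood for each gene. Signals were raised to a floor of 14 and log2 transformed, and a 2-fold difference was called.

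With 1 array per group, no replicate error and no p-value can be had, and the number of arrays limits the precision. Signals are named for members of the gene lists, for the 25 members with the widest gap and for the 5 genes either side of the threshold, which covers all 29. Other list genes are named where a result turns on them. Promoter motifs were planned and not analysed here, since no sequences were used. The members and lists were chosen with earlier results of these data known. The selection code was run on simulated arrays in which only bright genes were lowered. Most members are dim, so that run does not show how the rule performs for them. Alternatives were quantile normalization, median centring, other floors, thresholds and probe set rules. Calculations used Python 3.11.15, numpy 2.4.6 and pandas 2.3.3, and plots matplotlib 3.10.9.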

Additional observations from a re-analysis of the deposited data

How the results depend on the processing

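No paired analysis was possible because each group had 1 array. The rule selected 29 genes with the values as deposited. It selected 108 with quantile normalization, 160 with median centring, 16 with a floor of 28 (16 of the 29), 60 with a floor of 7, 188 with no floor, 217 at 1.5-fold and 1 at 3-fold (1 of the 29). Centring on the head lists, added after seeing the data, selected 6 (5 of the 29). Under quantile normalization, median centring, a floor of 7 and no floor, 24, 24, 29 and 29 of the members still passed, and with the mean over probe sets 22. CG5172 and dyw passed under all 8 settings of scaling, floor and probe set rule. The mean linear signal as the measure of brightness changed no member. The number of arrays and the dim signals limit all of these counts.

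The median log2 ratio of the neuronal rescue over the rescue control was -1.74 with quantile normalization and -2.05 with median centring, and that over the mutant was -2.37 with median centring. Median centring also moved the mutant over the WT control to 1.22 and the rescue control over the WT control to 0.85. At 3-fold the single gene left gave -2.26 over the mutant, -2.04 over the rescue control and -2.58 over the WT control, with -0.32 for the mutant and -0.54 for the rescue control over the WT control. The causes of these moves were not tested, except that a stricter threshold keeps fewer genes.

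Counts of all genes moved as well. Genes lower in the neuronal rescue than in the mutant numbered 357 as deposited, 1001 with quantile normalization, 4200 with median centring, 852 with no floor, 1310 at 1.5-fold, 50 at 3-fold and 63 on the head lists. Against the rescue control there were 180 as deposited and, under those settings, 827, 3796, 777, 959, 25 and 74, with 119 at a floor of 28 and 324 at a floor of 7. Against the WT control there were 331 as deposited, 913 with no floor, 982 at 1.5-fold, 92 at 3-fold and 126 on the head lists. Below all 3 other arrays there were 34 as deposited, 120 with quantile normalization, 171 with median centring, 18 and 67 with floors of 28 and 7, 220 with no floor, 234 at 1.5-fold, 2 at 3-fold and 7 on the head lists.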

Other observations

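Probe sets without a single gene symbol were kept out of the gene counts. Of 4721 with no symbol, 2 met the same conditions. The first had a signal of 26.8 in the neuronal rescue, 108.7 in mutant heads, 55.2 in rescue control heads and 167.7 in WT control heads. The other had 21.9, 74.3, 49.3 and 44.4 in that array order. A further 2 of 402 probe sets with several symbols also met them, with smallest folds of 2.43 and 2.01.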
